A study of Rattus norvegicus with 46 samples.

Results

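Ditpa (diiodothyropropionic acid), a synthetic analogue of thyroxin, was given to rats for 2 weeks and the left ventricle was profiled on oligonucleotide arrays. The 2 arrays labelled Ditpa were chosen by their labels and compared with the 2 arrays labelled vehicle. Together they were 4 of the 46 arrays of a series on cardiac hypertrophy. The other arrays held 22 from surgically loaded or infarcted hearts, 16 from their shams, 2 from neonatal hearts and 2 from rats given angiotensin II for 2 weeks. The Ditpa rats received the compound under the skin, as an infusion according to the sample labels and as daily injections according to the methods of the study. The vehicle rats received saline under the skin for 2 weeks. According to the methods, the rats were male Wistar rats, and each array held 1 pool of left ventricular RNA from several animals split at random. A difference between 2 arrays of a group is therefore a difference between pools. The p-values and standard errors below rest on the spread between pools within all 20 groups of the series, not within these 4 arrays alone. The angiotensin II rats carried osmotic pumps, and the methods describe a separate pump vehicle for them, but the labels give a single pair of vehicle arrays, so both hormone groups were set against the same pair.

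Thyroid hormone enters heart muscle cells through membrane transporters, is activated or degraded by deiodinases, and acts through nuclear receptors, which bind DNA mostly together with retinoid X receptors. In the rodent ventricle it is known to raise alpha-myosin heavy chain (Myh6) and the calcium pump of the sarcoplasmic reticulum (Atp2a2), and to lower beta-myosin heavy chain (Myh7) and phospholamban (Pln), the inhibitor of that pump. It also increases the oxidation of fuels. Ditpa binds the same receptors with lower affinity than the natural hormone.

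The tissue label was checked against marker genes. The sums here and below are of intensities after quantile normalization. Of 16 cardiomyocyte markers 13 were measured. Their summed intensities were 432253 and 429438 in the Ditpa arrays and 432528 and 428349 in the vehicle arrays. Many of them are among the brightest signals, which this normalization makes nearly alike between arrays, so near-equal sums were favoured by the scaling. As deposited, 0 of the 13 lay above both vehicle arrays and 11 lay below, with a median difference of -0.605 log2. The summed intensity of 3 atrial markers was 18872 and 12298 in the Ditpa arrays and 16617 and 17989 in the vehicle arrays, with the lowest sum in Ditpa replicate 2. The brightest of the 3, Nppa, weighs most in this sum and is also named below as a marker of ventricular stress. Over 12 lists of cell type markers the summed levels overlapped between the groups for 7. They were higher in both Ditpa arrays for 1 (red blood cells) and lower in both for 4 (fibroblasts, endothelium, macrophages and adipocytes). As deposited, the 4 red blood cell markers had a median difference of -0.218, with 0 above both vehicle arrays and 2 below. The medians of the 4 lower lists were negative on both scales. By single markers, 3 of 11 fibroblast markers lay below both vehicle arrays and 0 above. For adipocytes 2 of 8 lay below and 1 above, and for endothelium 1 of 6 below and 1 above. The brightest markers, Dcn for fibroblasts and Lpl for adipocytes, weigh most in their sums. The endothelial sums were close, at 10038 and 9893 in the Ditpa arrays and 10144 and 10314 in the vehicle arrays. The sums for 8 macrophage markers were 16454 and 20175 in the Ditpa arrays and 21215 and 21262 in the vehicle arrays. Of these 8 markers 3 lay below both vehicle arrays and 1 above, and 2 had a positive difference. The brightest, Lyz2, weighs most in the sum. Its log2 level was 11.77 and 12.45 in the Ditpa arrays and 12.70 and 12.63 in the vehicle arrays. In tissue RNA of this kind fewer cells of a type and less RNA per cell cannot be told apart. Whether these levels had a part in the gene differences below was not tested.

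The brightest signals differed between the groups in the values as deposited. The 99th percentile of intensity was 17174 and 17473 in the Ditpa arrays, 17541 and 17587 in the angiotensin II arrays, and 25836 and 22492 in the vehicle arrays. The median intensity was 1053 and 1061 in the Ditpa arrays and 1046 and 1064 in the vehicle arrays, so the middle of the range was level. Among the 88 probe sets in the top 1% of mean level the median difference, Ditpa minus vehicle, was -0.58 on the log2 scale as deposited and -0.01 after quantile normalization. The 349 probe sets between the 95th and 99th percentile had a median difference of -0.22 as deposited and -0.01 after normalization. Myh6, Atp2a2 and most genes of oxidative phosphorylation lie in this range. Levels and differences below are therefore log2 intensities after quantile normalization over all 46 arrays, and values as deposited are given beside them for most of the brighter genes and lists named.

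**Figure D1:**
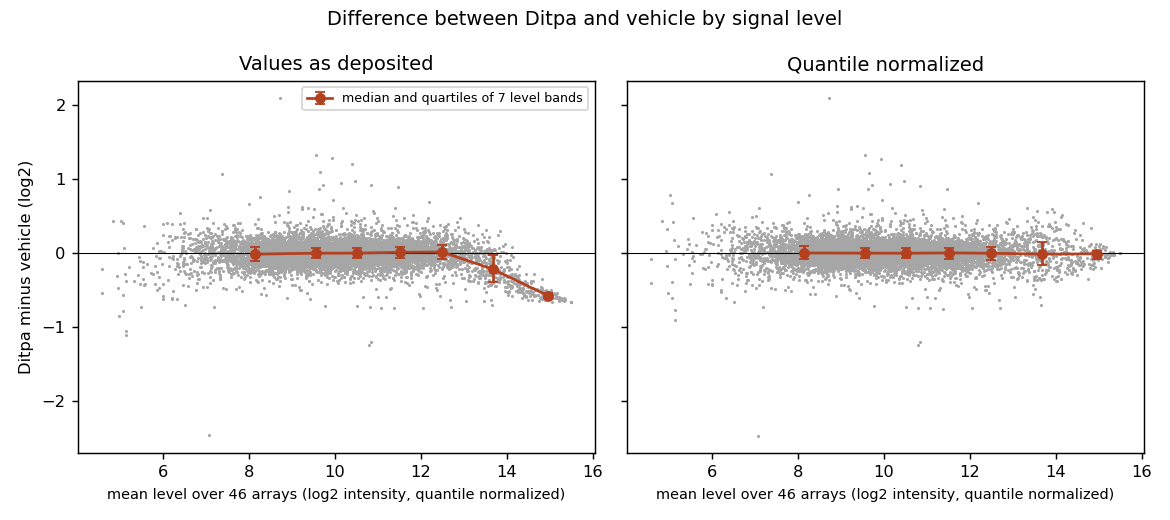
Log2 difference, Ditpa minus vehicle, of each of 8740 probe sets (grey points) against its mean log2 level over 46 arrays, as deposited (left) and after quantile normalization (right), with the median and quartiles of 7 level bands. The median of the brightest band lies at -0.58 as deposited and at -0.01 after normalization.

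No probe set passed the test between Ditpa and vehicle. In the limma fit of all 46 arrays, 0 of 8740 probe sets reached an adjusted p under 0.05 in either direction, and the smallest adjusted p was 0.980. At an unadjusted p under 0.05 there were 84 probe sets higher (0.961% of all) and 78 lower (0.892%). By size alone, with both Ditpa arrays beyond both vehicle arrays and at least 0.5 log2 between the means, 25 probe sets were higher (0.286% of all) and 28 lower (0.32%). The weakest of these differed by 0.503 and -0.504 log2, and the next outside the rule by 0.492 and -0.498. In 10 of the 25 and 11 of the 28 the arrays of 1 group lay farther apart than the group means. As deposited, 0 probe sets passed the test, with 46 higher (0.526%) and 234 lower (2.68%) at an unadjusted p under 0.05, and the size rule held for 18 higher (0.206%) and 144 lower (1.65%). The standard error of a difference was 0.164 log2 in the median probe set. It rests on the spread in all 20 groups and limits how small a change this fit can resolve. The median gap between the arrays of a group was 0.114 log2 for Ditpa and 0.106 for vehicle. In all groups of 2 arrays it ranged from 0.092 (shunt, 8 weeks) to 0.268 (banding, 12 weeks). At an unadjusted p under 0.05, limma on hormone and vehicle arrays only gave 218 higher and 213 lower. Array weights gave 201 and 235, and neither setting gave an adjusted call. Against the vehicle arrays, calls appeared only when 1 array was left out. Without Ditpa replicate 1, 20 probe sets were called higher and 3 lower. Without Ditpa replicate 2, 0 were called higher and 2 lower, without vehicle replicate 1 the counts were 0 and 5, and without vehicle replicate 2 they were 4 and 0.

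No gene that thyroid hormone is known to act on passed the test, and the lists of such genes had medians close to that of all genes. Of 24 genes that the hormone raises in heart or other tissues 19 were measured, each by its brightest probe set. The Ditpa arrays lay above both vehicle arrays in 6 of the 19 (16.2% of all probe sets did) and below in 5 (15% of all did). Their median difference was 0.03 log2, against 0.00 over all 4736 genes. Of 11 genes that the hormone lowers 10 were measured, 0 lay above and 5 below, with a median of -0.06.

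The myosins and the calcium pump were each measured by several probe sets, which differed among themselves. By its brightest probe set Myh6 was at 15.12 and 15.04 in the Ditpa arrays and 15.02 and 15.07 in the vehicle arrays, a difference of 0.03 ± 0.23 (SE, n = 2 each). Its other probe sets differed by -0.35 ± 0.15, with both Ditpa arrays below both vehicle arrays, and by 0.24 ± 0.22, with both above. Myh7 was at 15.17 and 15.17 in the Ditpa arrays and 15.24 and 15.24 in the vehicle arrays, a difference of -0.07 ± 0.08, and a second probe set differed by -0.22 ± 0.24. The brightest Atp2a2 probe set was at 15.33 in both Ditpa arrays and 15.33 and 15.31 in the vehicle arrays. Its difference was 0.01 ± 0.08. In a pair of dimmer Atp2a2 probe sets both Ditpa arrays lay below both vehicle arrays on both scales, by -0.17 ± 0.11 and -0.25 ± 0.17, and in the other dimmer one the groups overlapped (0.03 ± 0.19). Pln differed by -0.02 ± 0.22. None of these passed the test. As deposited, the brightest probe sets of Myh6, Myh7 and Atp2a2 differed by -0.55, -0.63 and -0.61, close to the -0.58 of all probe sets at that level. At the top of the range quantile normalization gives each rank 1 fixed value, and neighbouring ranks lie close together. Normalized differences near 0 there are largely set by the scaling and do not show whether these genes changed. The brightest Myh6 and Myh7 probe sets are of the type designed against families of like sequences, so the signal of one myosin may hold some of the other.

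The highest member of the raised list was Pdk4, the kinase that switches off pyruvate dehydrogenase and so spares glucose. Pdk4 was at 10.71 and 12.21 in the Ditpa arrays and 10.07 and 10.47 in the vehicle arrays, a difference of 1.19 ± 0.36, with an unadjusted p of 0.00216 that did not survive adjustment. Both Ditpa arrays lay above both vehicle arrays, but replicate 2 stood 1.49 above replicate 1. Only without Ditpa replicate 1 was Pdk4 called (limma, adjusted p = 0.00794). The angiotensin II arrays were at 11.56 and 11.12. Ucp2, a carrier of the inner mitochondrial membrane, was at 14.36 and 14.09 in the Ditpa arrays and 13.93 and 13.42 in the vehicle arrays, a difference of 0.55 ± 0.19. Its groups overlapped as deposited, where the difference was 0.13. The second, dimmer Ucp2 probe set was separated on both scales, at 12.28 and 12.10 in the Ditpa arrays and 11.75 and 11.74 in the vehicle arrays, with differences of 0.45 ± 0.19 and, as deposited, 0.47. Atp1b1, the beta subunit of the sodium pump, was at 14.02 and 13.87 in the Ditpa arrays and 13.55 and 13.37 in the vehicle arrays, a difference of 0.49 ± 0.17 that was 0.21 as deposited. Its other probe sets differed by 0.12 and 0.33.

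Smaller differences with separate groups were seen for Dio1, which makes active hormone from thyroxin mainly in liver and kidney (0.20 ± 0.15), for malic enzyme Me1, a classical hepatic target (0.19 ± 0.18), and for the lactate carrier Slc16a3 (0.12 ± 0.13). Each was close to or under its error. Klf9, a transcription factor induced by thyroid hormone in brain and other tissues, lay on the other side, at 11.43 and 11.76 in the Ditpa arrays and 11.93 and 12.15 in the vehicle arrays, a difference of -0.45 ± 0.24. Its second probe set differed by -0.47. The insulin-responsive glucose transporter Slc2a4 differed by -0.29 ± 0.26 with overlapping groups.

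**Figure D2:**
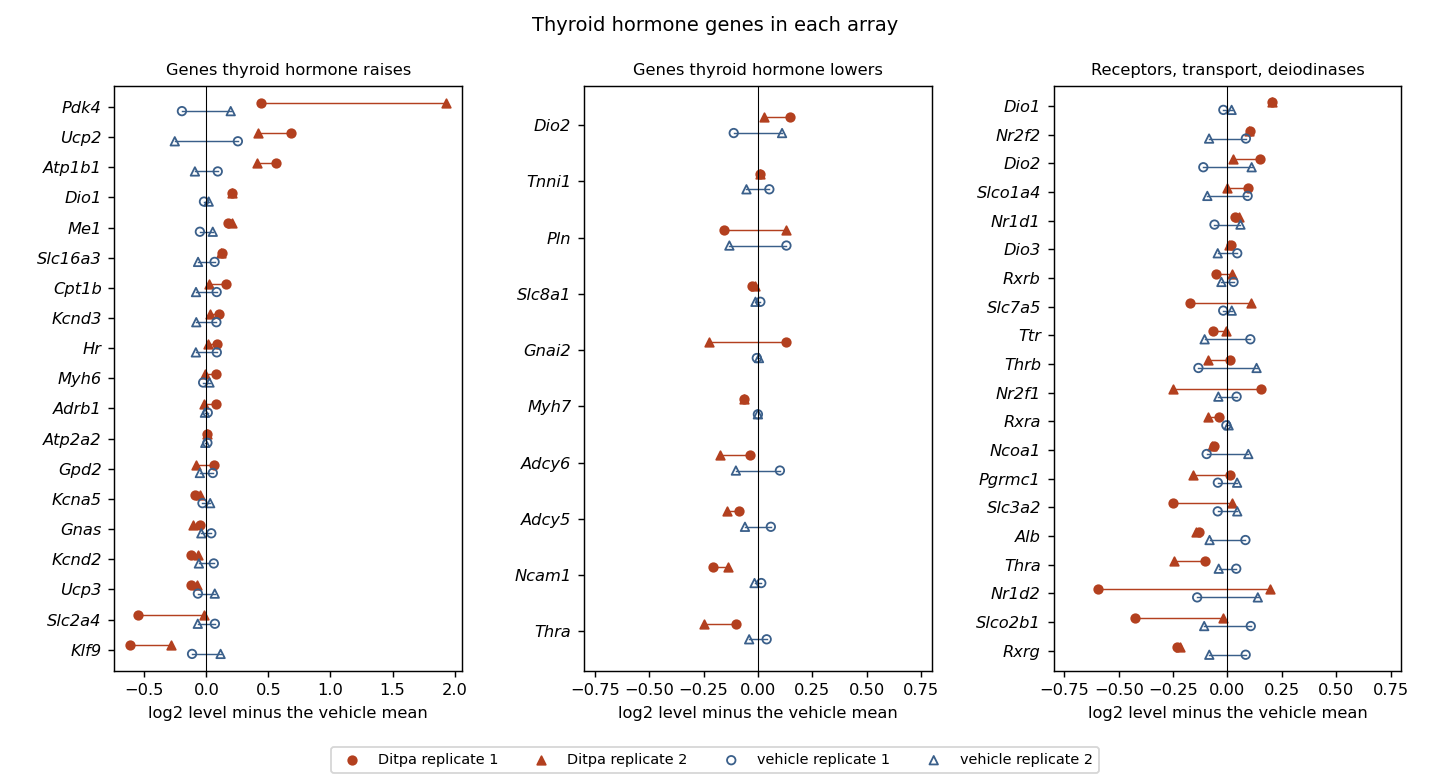
Log2 level minus the mean of the vehicle arrays (x axis) in each Ditpa array (filled) and vehicle array (open) for the measured genes that thyroid hormone raises, the genes it lowers, and genes of its receptors, transport and deiodination. Pdk4 replicate 2 lies farthest from the vehicle arrays. The brightest probe sets of Myh6, Myh7 and Atp2a2 lie near 0, at a level where quantile normalization leaves little room for a difference.

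Among 28 genes of the receptors, transport and deiodination of the hormone 20 were measured, with 2 above both vehicle arrays, 4 below and a median of -0.04. The receptor genes differed little. Thra, the main receptor of the heart, was at 11.56 and 11.42 in the Ditpa arrays and 11.70 and 11.62 in the vehicle arrays, a difference of -0.17 ± 0.13. Thrb differed by -0.04 ± 0.16. Of the retinoid X receptors, Rxrg was at 11.78 and 11.79 in the Ditpa arrays and 12.09 and 11.93 in the vehicle arrays, a difference of -0.23 ± 0.15, whereas Rxra (-0.07 ± 0.12) and Rxrb (-0.02 ± 0.12) lay closer to 0. The deiodinases Dio2 (0.09 ± 0.17) and Dio3 (0.01 ± 0.12) differed by less than their errors.

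The promoters of the raised genes were searched for the receptor's half-site, AGGTCA, on either strand in the 250 bases before the start of each RefSeq gene (GRCr8). It was found in 1 of the 15 measured genes with a promoter in the table (6.7%, Ucp3), against 14.06% of all 33469 promoters. The direct repeat of this half-site with any 4 bases between the copies, the classical thyroid hormone response element, was found in 0 of the 15 and in 0.003% of all promoters. These are matches of letters in a short window, and sites elsewhere were not searched.

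The genes with the strongest separation came from several functions. The 12 highest and 12 lowest genes by moderated t, among those separated on both scales and with a mean level above the 25th percentile, are shown by array. For these genes the probe set with the largest t is given, which is not always the brightest. The lowest was Eno3, the muscle form of the glycolytic enzyme enolase, at 9.53 and 10.42 in the Ditpa arrays and 11.37 and 11.07 in the vehicle arrays. Its difference was -1.24 ± 0.31, with an unadjusted p of 0.000387, and its Ditpa arrays lay closer together than the group means. Slc6a8, the creatine transporter, was at 11.79 and 11.80 in the Ditpa arrays and 12.42 and 12.15 in the vehicle arrays, a difference of -0.49 ± 0.15. Ndufa9, a subunit of respiratory complex I, was at 13.40 and 13.33 in the Ditpa arrays and 13.76 and 13.70 in the vehicle arrays, a difference of -0.37 ± 0.13. Lower by 0.33 to 0.46 log2 were also the purine salvage enzyme Hprt1 (-0.46), the translation factor Eif4h (-0.44), the growth factor Gdf10 (-0.38), the chemokine Ccl5 (-0.37), the cytochrome Cyp2e1 (-0.37) and the methyltransferase Pemt (-0.33). The brightest Cyp2e1 probe set differed by -0.04 with overlapping groups, and the other probe sets of Eif4h by -0.20 and -0.13. Fam111a, which the level limit left out, was farther below vehicle by t, at 7.16 and 6.44 in the Ditpa arrays and 7.90 and 10.64 in the vehicle arrays, a difference of -2.47 ± 0.56.

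On the high side, Inha, the inhibin alpha subunit, was at 12.40 and 11.93 in the Ditpa arrays and 11.54 and 11.08 in the vehicle arrays, a difference of 0.86 ± 0.26. Its second, brighter probe set differed by 0.15. Aldoa, the muscle aldolase of glycolysis, was at 13.96 and 14.11 in the Ditpa arrays and 13.33 and 13.63 in the vehicle arrays, a difference of 0.55 ± 0.20 that was 0.24 as deposited. Wfdc1, a secreted protein with a protease inhibitor fold, differed by 0.59 ± 0.21, and the lipid phosphatase Plpp3 by 0.47 ± 0.18. Fgfr1op2 (0.44), the nuclear phosphoprotein Anp32a (0.40) and Ndrg4 (0.35), a gene of heart and brain, completed the group with Pdk4, Atp1b1 and those below. Other probe sets of some of these genes had overlapping groups. The brightest of Anp32a differed by -0.10 and the dimmest by 0.01, the second of Ndrg4 by 0.09 and the second of Plpp3 by -0.09.

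Several of the separations rested on 1 array. Calcb, a calcitonin gene-related peptide, was above by t all genes shown but had too low a mean level for the rule, at 9.04 and 9.09 in the Ditpa arrays and 7.66 and 8.74 in the vehicle arrays, a difference of 0.87 ± 0.21. Kcnv1, a modifier subunit of potassium channels, was at 9.51 and 9.70 in the Ditpa arrays and 7.09 and 9.46 in the vehicle arrays, so its difference of 1.33 came from vehicle replicate 1. Pik3r2, a regulatory subunit of phosphatidylinositol kinase, was at 9.38 and 9.21 in the Ditpa arrays and 8.16 and 9.17 in the vehicle arrays. Without vehicle replicate 2 both were called (limma, adjusted p = 4.3e-07 and 0.0252). Adgrl2, an adhesion receptor, was at 11.79 and 11.90 in the Ditpa arrays and 11.99 and 13.19 in the vehicle arrays, and was called without vehicle replicate 1 (adjusted p = 0.000219). Vps39, a subunit of a lysosomal tethering complex, was at 10.93 and 8.74 in the Ditpa arrays and 11.02 and 11.04 in the vehicle arrays, and was called without Ditpa replicate 1 (adjusted p = 1.42e-10). The peptide transporter Slc15a4 was at 8.43 and 9.26 in the Ditpa arrays and 9.31 and 9.38 in the vehicle arrays, and was called without Ditpa replicate 2 (adjusted p = 0.0175).

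**Figure D3:**
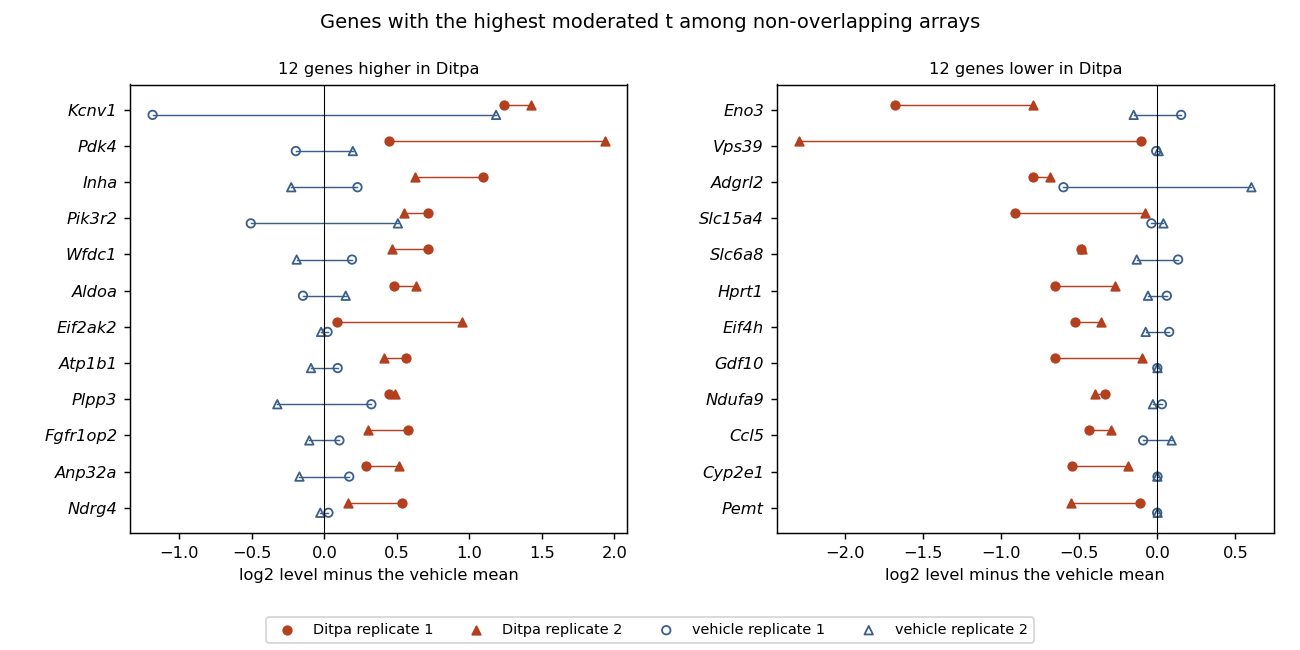
Log2 level minus the mean of the vehicle arrays (x axis) in each Ditpa array (filled) and vehicle array (open) for the 12 genes with the largest positive and the 12 with the largest negative moderated t among genes with separate groups. Kcnv1, Adgrl2 and Vps39 each rest on 1 outlying array, whereas the arrays of Slc6a8 and Ndufa9 lie close together within each group.

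Fuel metabolism was described by 4 lists. On the normalized scale 16.2% of all probe sets lay above both vehicle arrays and 15% below. Of 29 measured genes of glucose and lactate use, 14 lay above both vehicle arrays and 2 below, with a median of 0.08, and 1 was past the size rule in each direction (Aldoa and Eno3). As deposited 9 lay above (15.7% of all probe sets) and 6 below (17.2%), with a median of 0.03. The pyruvate kinase Pkm, named after its values were seen, differed by 0.35 ± 0.11 and by -0.13 as deposited. Of 21 genes of the citrate cycle and pyruvate oxidation 9 lay above and 2 below, with a median of 0.10, and as deposited 7 and 8, with a median of -0.01. Of 34 genes of fatty acid oxidation 10 lay above and 4 below (median 0.04), and as deposited 8 and 7 (median -0.04). Of 38 genes of oxidative phosphorylation 8 lay above and 20 below, with a median of -0.06. As deposited 1 lay above and 31 below, with a median of -0.51. No gene of these lists passed the test, and the balance of the brighter lists moved with the scaling.

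The other lists had medians near 0. The medians of the 24 lists lay between -0.06 and 0.10 on the normalized scale, and 18 lists had no member past the size rule. The low end was that of the genes thyroid hormone lowers and of oxidative phosphorylation, and the high end that of the citrate cycle and pyruvate oxidation. Of 22 chaperones 10 lay above both vehicle arrays and 1 below, with a median of 0.09. As deposited 6 lay above and 3 below, with a median of 0.08. Of 38 genes of adrenergic and cyclic AMP signalling 5 lay above and 10 below (median -0.04), of 26 of calcium handling 4 and 6 (median -0.01), and of 25 cardiac channel genes 2 and 6 (median -0.02). Contractile isoforms were 4 above and 6 below of 26 (median 0.00), and as deposited 2 above and 13 below (median -0.12). Of the remaining lists the extracellular matrix had 2 above and 4 below of 36 (median 0.02) and the fetal and stress genes 5 and 3 of 23 (median 0.01). Over all genes the shares above and below were 801 and 706 of 4736.

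The Ditpa pools differed from each other in a set that included chemokines and genes that interferon induces. The set was chosen after its values were seen, as the 45 probe sets (0.515% of all) at least 1 log2 higher in Ditpa replicate 2 than in replicate 1. They covered 33 named genes. Only 7 probe sets (0.0801%) were as far apart in the other direction. The median levels were 9.75 and 11.41 in the Ditpa arrays and 9.98 and 10.13 in the vehicle arrays, so the vehicle medians lay between those of the Ditpa arrays, nearer to replicate 1. In 39 of the 45 Ditpa replicate 1 lay below both vehicle arrays, as it did in 2774 of all 8740 probe sets. In 27 of the 45 replicate 2 was the highest of the 46 arrays. The choice of the set favours both counts. Of the 18 measured genes in the list of MHC and interferon genes, 5 were at least 1 log2 higher in replicate 2 by their brightest probe set (Cxcl10, Gbp2, Irf1, Irf7 and Mx1), as were 3 of 22 chaperones and 26 of all 4736 genes (0.549%). The set also held genes of other roles, such as Pdk4, the clock gene Per2 and xanthine dehydrogenase Xdh. The count of probe sets at least 1 log2 apart, 52, was not unusual for the series. It ranged from 19 to 290 in the other groups of 2 arrays, with a median of 43.5.

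The widest gaps among the named genes were those of the chemokines Cxcl10 (4.09 log2) and Ccl2 (3.21), and Gbp2, given below, was next at 3.20. Cxcl10, an interferon-induced attractant of T cells, was at 8.55 and 12.64 in the Ditpa arrays, 12.18 and 10.83 in the angiotensin II arrays, and 8.54 and 8.46 in the vehicle arrays, and it lay between 8.06 and 8.87 in the 40 other arrays. Ccl2, which attracts monocytes, was at 9.80 and 13.01 in the Ditpa arrays, 12.42 and 11.94 in the angiotensin II arrays, and 9.96 and 10.30 in the vehicle arrays. The cytokine Il6 was at 8.10 and 10.48 in the Ditpa arrays, 9.13 and 8.99 in the angiotensin II arrays, and 8.80 and 8.71 in the vehicle arrays. For Cxcl10, Ccl2 and Il6 Ditpa replicate 2 lay above both angiotensin II pools. Replicate 1 lay at the vehicle level for Cxcl10 and below both vehicle pools for Ccl2 and Il6.

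Genes that interferon induces were also in the set. The guanylate-binding protein Gbp2 was at 7.32 and 10.52 in the Ditpa arrays and 7.40 and 8.31 in the vehicle arrays. The transcription factor Irf1 was at 10.61 and 12.86 in the Ditpa arrays and 11.02 and 11.24 in the vehicle arrays. The antiviral gene Mx1 was at 9.50 and 11.48 in the Ditpa arrays and 9.72 and 9.44 in the vehicle arrays. Irf7, Rsad2, Irgm2, Ifitm3 and the immunoproteasome subunit Psmb9 were in the same set. So were the endothelial adhesion molecules Vcam1, Sele and Selp, the acute phase and neutrophil proteins Lcn2 and S100a9, the protease inhibitor Timp1, the NF-kappaB inhibitor Nfkbia and the chaperones Hspb1, Hspa1a and Hspa5. Eif2ak2, the RNA-sensing kinase PKR, was outside this set because its gap was smaller, at 10.52 and 11.38 in the Ditpa arrays and 10.45 and 10.41 in the vehicle arrays. In 37 of the 45 probe sets both angiotensin II arrays also lay above both vehicle arrays (16% of all probe sets did). Ditpa and angiotensin II share these vehicle arrays.

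The markers of leukocytes were set beside these genes. The summed intensity of 9 lymphocyte markers was 10201 and 10184 in the Ditpa arrays and 10211 and 9997 in the vehicle arrays. The sum for the 8 macrophage markers was higher in Ditpa replicate 2 (20175) than in Ditpa replicate 1 (16454), and both were under the vehicle sums of 21215 and 21262. Lyz2 weighs most in this sum, and 3 of the 8 markers lay below both vehicle arrays. The part of lymphocytes and macrophages in the difference between the Ditpa pools was not tested.

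The promoters of these genes are shown for the core of the interferon-stimulated response element, which interferon regulatory factors are known to bind. It is GAAA, any 2 bases and GAAA again, and it was searched on both strands of the 250 bases before the start in RefSeq (GRCr8), where 29 of the 33 genes had a promoter. It was found in 8 of the 29 (27.6%: Cxcl10, Gbp2, Ifitm3, Irf7, Irgm2, RT1-S3, Rsad2 and Vcam1), against 3.41% of all 33469 promoters and 3.61% of 27457 genes. A match is a description of the letters and not a binding site. The sequences of 4 of these promoters and that of Eif2ak2 are printed 5′ to 3′ on the strand of the gene, ending at the base before its start, with the match in capitals (written from TTTC to TTTC where it lies on the other strand).
Cxcl10 (chr14:15988816-15989065, plus strand): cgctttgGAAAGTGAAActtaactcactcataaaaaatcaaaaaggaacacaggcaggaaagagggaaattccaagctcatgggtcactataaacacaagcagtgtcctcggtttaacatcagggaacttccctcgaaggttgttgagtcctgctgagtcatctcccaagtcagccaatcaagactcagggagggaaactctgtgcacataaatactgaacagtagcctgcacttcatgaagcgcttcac
Gbp2 (chr2:234005477-234005726, plus strand): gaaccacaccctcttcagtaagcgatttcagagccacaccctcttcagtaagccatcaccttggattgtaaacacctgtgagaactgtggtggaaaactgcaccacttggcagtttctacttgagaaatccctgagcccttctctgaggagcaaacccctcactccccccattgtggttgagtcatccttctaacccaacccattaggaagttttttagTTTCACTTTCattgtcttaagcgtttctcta
Rsad2 (chr6:48788121-48788370, minus strand): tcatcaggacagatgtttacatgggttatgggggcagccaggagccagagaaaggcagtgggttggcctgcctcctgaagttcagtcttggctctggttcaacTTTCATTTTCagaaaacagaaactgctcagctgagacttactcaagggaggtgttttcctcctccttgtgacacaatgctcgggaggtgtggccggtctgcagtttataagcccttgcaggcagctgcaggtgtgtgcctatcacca
Irf7 (chr1:205800024-205800273, minus strand): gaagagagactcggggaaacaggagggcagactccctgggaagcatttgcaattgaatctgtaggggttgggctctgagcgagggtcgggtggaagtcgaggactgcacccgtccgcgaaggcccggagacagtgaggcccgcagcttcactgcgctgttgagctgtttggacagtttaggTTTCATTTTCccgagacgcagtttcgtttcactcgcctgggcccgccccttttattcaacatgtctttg
Eif2ak2 (chr6:21940904-21941153, plus strand): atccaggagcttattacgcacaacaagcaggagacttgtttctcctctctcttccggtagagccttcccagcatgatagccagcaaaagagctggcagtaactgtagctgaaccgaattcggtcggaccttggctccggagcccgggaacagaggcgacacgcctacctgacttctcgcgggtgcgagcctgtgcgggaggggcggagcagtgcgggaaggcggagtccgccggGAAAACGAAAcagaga

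**Figure D4:**
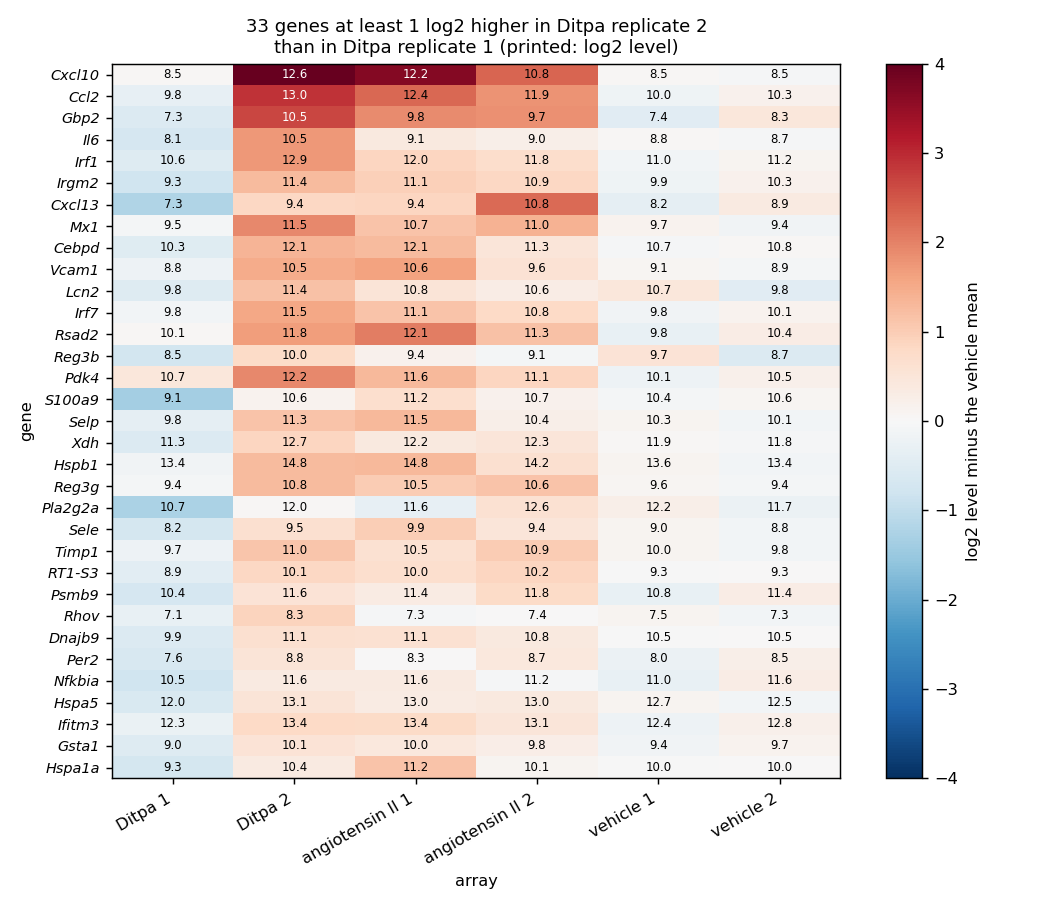
Log2 level (printed) and log2 level minus the vehicle mean (colour) of the 33 genes at least 1 log2 higher in Ditpa replicate 2 than in Ditpa replicate 1, by array, with 1 probe set a gene. Cxcl10 stands at 12.6 in Ditpa replicate 2 and at 8.5 in Ditpa replicate 1, and the angiotensin II arrays lie above the vehicle arrays for most genes.

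The effect of Ditpa was then compared with that of surgical load or infarction. The 8 surgical groups were pressure overload by banding of the ascending aorta at 6, 12, 16 and 30 weeks, myocardial infarction at 3 and 9 weeks, and volume overload by an arteriovenous shunt at 3 and 8 weeks. They were each set against their own sham, and the mean of their effects was subtracted from the Ditpa effect, so no control array was shared. In limma 13 probe sets passed the test, 5 (0.0572%) with a higher and 8 (0.0915%) with a lower effect under Ditpa. The lower ones were led by Nppa, the atrial natriuretic peptide and a marker of ventricular stress. Its 4 probe sets differed by -0.35 ± 0.31, -0.30 ± 0.31, -0.02 ± 0.24 and -0.19 ± 0.33 between Ditpa and vehicle and by 2.25, 2.28, 1.98 and 2.35 on average between surgery and sham. All 4 passed (adjusted p = 2.45e-05 for 3 and 9.43e-05 for the fourth) and stayed past it without any one Ditpa or vehicle array. In the brightest probe set Nppa was at 13.45 and 12.88 in the Ditpa arrays and 12.98 and 13.38 in the vehicle arrays.

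Acta1, skeletal alpha-actin of the fetal program, differed by 0.15 ± 0.22 under Ditpa and by 1.45 under surgery (adjusted p = 0.00679). It kept the call in 2 of the 4 fits without 1 array, with a highest adjusted p of 0.243. The levels of Acta1 were 13.89 and 13.37 in the Ditpa arrays and 13.32 and 13.64 in the vehicle arrays. Akip1, which binds protein kinase A, differed by 0.17 ± 0.26 under Ditpa and 1.49 under surgery (adjusted p = 0.0339), the matrix proteoglycan Bgn by -0.06 ± 0.28 and 1.30 (adjusted p = 0.0402), and the secreted antioxidant enzyme Gpx3 by -0.24 ± 0.16 and 0.60 (adjusted p = 0.0269). Akip1 and Gpx3 kept the call in 1 of the 4 fits and Bgn in 0. As deposited Bgn missed the threshold at 0.0598.

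The probe sets with a higher effect under Ditpa were mostly of mitochondrial fatty acid oxidation. Hadha, of the trifunctional protein, was at 14.10 and 14.05 in the Ditpa arrays and 13.87 and 13.69 in the vehicle arrays, 0.30 ± 0.13 under Ditpa against -0.43 under surgery (adjusted p = 0.00701). The isomerase Eci1 passed by its 2 brightest probe sets, at 0.28 ± 0.14 and 0.28 ± 0.19 under Ditpa against -0.50 and -0.64 under surgery (adjusted p = 0.0157 and 0.0402). Its dimmer probe sets did not pass, and differed by -0.07 and 0.09 between Ditpa and vehicle with overlapping groups. The thiolase Acaa2 differed by 0.17 ± 0.16 against -0.67 (adjusted p = 0.0269), and Nudt4, an inositol phosphate hydrolase, by 0.38 ± 0.17 against -0.49 (adjusted p = 0.0244). As deposited the Ditpa effect was -0.01 for Hadha with overlapping groups, 0.18 and 0.10 for Eci1, 0.41 for Nudt4, and -0.30 for Acaa2 with both Ditpa arrays below both vehicle arrays. The differences from the surgical effect were 0.38 for Hadha and 0.35 for Acaa2 as deposited. All 5 lost the call as deposited, with adjusted p from 0.0576 for Nudt4 and 0.0598 for Eci1 to 0.9995 for Acaa2. Hadha kept the call in 3 of the 4 fits without 1 array, Eci1 in 1 and 2, Nudt4 in 1 and Acaa2 in 0.

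**Figure D5:**
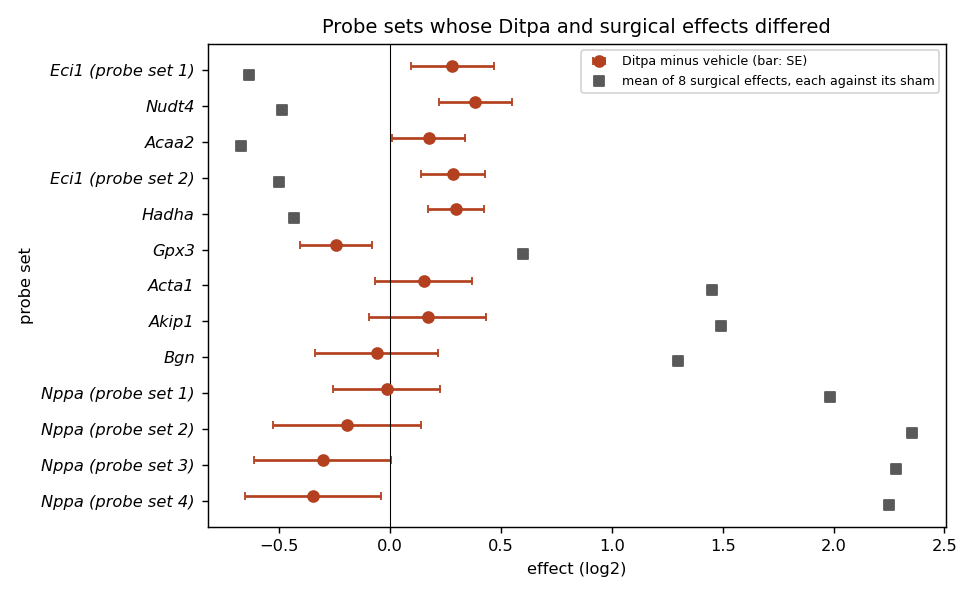
Log2 effect (x axis) of Ditpa against vehicle (circles, bar SE) and mean of 8 surgical effects, each against its own sham (squares), for the 13 probe sets whose effects differed at an adjusted p under 0.05. The Ditpa effects of the 4 Nppa probe sets lie between -0.35 and -0.02 and the surgical means between 1.98 and 2.35.

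Tested directly against angiotensin II, without the vehicle arrays, 1 probe set passed (0.0114% of all). Fam111a, a protease gene linked to virus restriction in human cells, was at 7.16 and 6.44 in the Ditpa arrays and 9.60 and 10.69 in the angiotensin II arrays, a difference of -3.34 ± 0.56 (limma, adjusted p = 0.0114). The vehicle arrays themselves were at 7.90 and 10.64 and spanned most of that distance. Without angiotensin II replicate 2 the adjusted p was 0.309. Nppa was at 13.45 and 12.88 in the Ditpa arrays and 13.91 and 14.10 in the angiotensin II arrays, and Acta1 at 13.89 and 13.37 and at 14.33 and 14.72, with separate groups for both and no call.

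When the 9 control groups were joined as the reference, 45 probe sets were called higher (0.515%) and 24 lower (0.275%) under Ditpa. Of these 69, 7 were past the size rule against the vehicle arrays. The mean level of Acta1 was 13.63 in the Ditpa arrays, 13.48 in the vehicle arrays and 12.77 over the shams. A comparison with shams therefore also holds what separates the vehicle arrays from them, and it was not used as the measure of Ditpa.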

How the data were processed

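RNA pools of left ventricle were hybridized to Affymetrix rat oligonucleotide arrays. The deposited values are linear intensities for 8740 probe sets on 46 arrays. The authors computed them in dChip (perfect match only model; version not given in the sources used here) after invariant set normalization, and left control probe sets out. In the present work the intensities were quantile normalized, given a floor of 16 and turned into log2 values. All 20 groups were fitted with limma 3.58.1 in R 4.3.3, with 26 residual degrees of freedom and Benjamini-Hochberg adjustment over all 8740 probe sets, so the 2 arrays a side borrowed their spread from the other groups. Precision is limited by the number of arrays. The fit was tested on simulated data. The platform table gave 1 gene for 7006 probe sets, several for 308 and none for 1426.

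In the lists a gene was represented by its probe set with the highest mean. Named were all measured genes of 3 thyroid hormone lists, the 12 genes each way with the largest moderated t (by the probe set with that t) among separated genes with 1 symbol and a mean above the 25th percentile, genes called in a comparison, and the leading members of the other lists. The members and lists were chosen with earlier results of these data known. Alternatives were other normalizations, floors, filters, samples, references and array weights, a replicate block, and leaving out each array. Motifs were searched in RefSeq promoters (GRCr8).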

Additional observations from a re-analysis of the deposited data

Results flagged for a closer look

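The following results differed between Ditpa and the other models by a test of the difference itself (limma, adjusted p under 0.05). Groups held 2 arrays, so no search for outlying arrays was made. The Ditpa effect minus the mean surgical effect was -2.60, -2.59, -2.00 and -2.55 log2 for the 4 probe sets of Nppa, -1.30 for Acta1, -1.32 for Akip1, -1.36 for Bgn and -0.84 for Gpx3. It was 0.73 for Hadha, 0.79 and 0.92 for the 2 brightest probe sets of Eci1, 0.85 for Acaa2 and 0.87 for Nudt4. The level under Ditpa minus that under angiotensin II was -3.34 for Fam111a. The Nppa differences kept their call in all 4 fits without 1 Ditpa or vehicle array, which no other probe set of the surgical comparison did.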

How the results depend on the processing

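With all 4 arrays and the vehicle reference, 0 probe sets were called under each of 9 other settings (values as deposited, cyclic loess, a floor of 64 or none, dim probe sets left out, hormone and vehicle arrays only, no neonatal arrays, array weights, replicate block), as in the fit reported. With all 9 control groups as reference 45 were called higher and 24 lower. Without 1 array the calls ranged from 0 to 20 higher and from 0 to 5 lower. The size rule gave 144 lower as deposited, 15 higher and 15 lower without dim probe sets, and 54 to 115 higher and 52 to 144 lower without 1 array, where a lone array replaces a mean. The surgical comparison called 20 probe sets as deposited, 0 higher and 20 lower against 5 and 8, and 8 to 26 without 1 array. The angiotensin II comparison called 1 to 27 without 1 array. Of 110 named probe sets, 9 changed sign as deposited, 8 with cyclic loess and 21 with all controls as reference. The cause of these changes was not tested. Of the probe sets past the size rule, 10 of the 25 higher and 13 of the 28 lower had mean levels under the 25th percentile, where signals are dim.

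Replicate numbers are shared by name only. Deviations of arrays with the same number correlated at -0.06 (Ditpa with vehicle), -0.08 (Ditpa with angiotensin II) and -0.04 (angiotensin II with vehicle) over 8740 probe sets. With the replicate number as a block 0 probe sets were called higher and 0 lower, and 82 and 73 had an unadjusted p under 0.05.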

Other observations

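The vehicle arrays differed from the shams of the surgical models, a comparison added after the data were seen. In limma 9 probe sets (0.103% of all) were higher and 5 (0.0572%) lower in vehicle than in the mean of the 8 sham groups. Higher were the chemokines Ccl5 (by 0.63 log2, adjusted p = 0.000578) and Cx3cl1 (1.31), the neutrophil protein S100a9 (1.27, adjusted p = 0.000633) and the complement protease C1s (0.92). So were the class I histocompatibility genes RT1-A (0.56) and RT1-CE12 (0.59), whose probe sets are shared by like sequences. Fam111a (2.63) was also higher, at 7.90 and 10.64 in the vehicle arrays against a mean of 6.64 over the shams. Lower were Maoa (-0.85), a mitochondrial monoamine oxidase, and Kcnv1 (-1.37), Calcb (-0.76) and Pik3r2 (-0.76), each of which was lower in vehicle replicate 1 than in replicate 2. S100a9 was at 9.14 and 10.63 in the Ditpa arrays and 10.41 and 10.56 in the vehicle arrays.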
